A study of Mus musculus with 43 samples.

Results

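The transcripts described here were those of 10 genes for subunits of ionotropic glutamate receptors, the glutamate-gated cation channels of excitatory synapses. The genes were chosen by name and read in all 43 count tables, so they are 10 of the 55416 genes counted. They fall into 3 families, namely 4 AMPA subunits (Gria1, Gria2, Gria3 and Gria4), 3 NMDA subunits (Grin1, Grin2b and Grin3a) and 3 kainate subunits (Grik2, Grik3 and Grik5). All 10 passed the filter on low counts in every comparison below.

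The libraries came from 4 glial populations, taken at 3 months of age from mouse cerebral cortex. Mice carrying the B6.Cg-Rag2tm1.1Cgn/J allele on both chromosomes (Rag2-/-), which lack mature T and B lymphocytes, were compared with littermate controls of the same colony, which had been crossed to C57BL/6J. The allele is deleted in the whole body, so no group separates an effect on glia from one on any other cell. The controls were Rag2+/- in pairs 1, 2, 3 and 5 and Rag2+/+ in pairs 4 and 6, both with lymphocytes. One cortical suspension per mouse was passed over a series of antibody-coated plates, a procedure called immunopanning, which took microglia with anti-CD45, oligodendrocyte precursor cells (OPCs) with anti-PDGFRA, oligodendrocytes with the GalC hybridoma antibody and astrocytes with anti-HepaCAM. There were 6 control and 6 Rag2-/- libraries of astrocytes and of microglia, 6 and 5 of OPCs, and 4 and 4 of oligodendrocytes. Pairs 2 and 5 were female and pairs 1, 3 and 4 male, while pair 6 set a male control beside a female Rag2-/- mouse.

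AMPA receptors carry most fast excitatory current, NMDA receptors pass calcium and open only when depolarisation relieves their magnesium block, and kainate receptors act both before and after the synapse. Each is an assembly of several subunits, and the mix of subunits sets how the channel conducts. OPCs are known for receiving synaptic input from neurons through AMPA receptors, and astrocytes mainly for glutamate uptake and metabotropic signalling.

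One codon of the channel pore and the bases around it show how close the AMPA subunits are to each other in the genome. In Gria2 pre-mRNA an enzyme that deaminates adenosine recodes a glutamine codon (the Q/R site), and AMPA receptors that hold the edited subunit conduct little calcium. The reading strand around this codon was taken from the GENCODE M39 coding sequences on GRCm39, with the codon itself in capitals, and lies inside a coding exon of each AMPA gene.
Gria1, codon 600, chr11:57133905-57133937, plus strand: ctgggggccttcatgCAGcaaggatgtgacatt
Gria2, codon 607, chr3:80614203-80614235, minus strand: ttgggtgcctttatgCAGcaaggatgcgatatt
Gria3, codon 612, chrX:40699127-40699159, plus strand: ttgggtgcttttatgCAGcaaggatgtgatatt
Gria4, codon 608, chr9:4464122-4464154, minus strand: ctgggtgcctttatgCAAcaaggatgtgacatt
Grik2, codon 621, minus strand of chromosome 10, across an exon junction: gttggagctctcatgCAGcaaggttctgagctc
Over these 33 bases Gria1 differed from Gria2 at 5, Gria3 at 2 and Gria4 at 4 bases, and none of these differences changed any of the 11 residues encoded. The same window of Grik2, Grik3 and Grik5 differed from Gria2 at 12, 10 and 9 bases and at 5, 6 and 4 residues. The glutamine codon is thus genomic in every subunit shown, and its editing cannot be read from counts per gene.

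The libraries held 6499417 to 23118497 counts on genes. Levels are given as normalized CPM, that is counts scaled to 1000000 per library after TMM, a factor that aligns most genes between libraries. A count of 3, the floor used for an absent gene, was worth 0.13 to 0.462 CPM. Rag2 had 0 counts in the 21 Rag2-/- libraries and 6 counts in all in 3 of the 22 controls. Iftap, which overlaps Rag2, had 14 to 208 counts in every control and at most 2 in any Rag2-/- library. Summed markers of each population were highest in its own libraries, at 7003 to 8987 CPM for 8 astrocyte markers in astrocytes and 10020 to 15230 CPM for 7 oligodendrocyte markers in oligodendrocytes. Markers of neurons were present too. The 12 neuron markers summed to 1504 to 4501 CPM in oligodendrocyte libraries, 622 to 1514 CPM in OPCs, 287 to 816 CPM in astrocytes and 157 to 304 CPM in microglia, and none of the 12 was at 0 in every library of any group. Mitochondrial transcripts took 45.8 to 60.1% of counts in oligodendrocytes and 6.75 to 11.7% in microglia. Each cell type filled a sequencing lane of its own, so a difference between lanes cannot be told apart from one between cell types.

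The first question was how the 10 subunits were distributed among the 4 populations, and it was put to the 22 control libraries. OPCs had the highest control mean of 7 members (Gria2, Gria3, Gria4, Grin3a, Grik2, Grik3 and Grik5), oligodendrocytes of the other 3 (Gria1, Grin1 and Grin2b), and microglia the lowest of every member but Grin1. Of the 10 members, 6 were higher in OPCs than in astrocytes and none lower, against a background of 17.4% of the 19368 genes tested called higher in OPCs and 13.5% called higher in astrocytes. A gene is called here when its p from edgeR's quasi-likelihood test, adjusted over all genes tested by the Benjamini-Hochberg method, was below 0.05. Between OPCs and oligodendrocytes 5 members were higher in OPCs (background 14.3%) and 3 in oligodendrocytes (background 12.5%). Between astrocytes and oligodendrocytes 1 member was higher in astrocytes (background 17.1%) and 7 in oligodendrocytes (background 20.5%).

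All 10 were higher in OPCs than in microglia (background 32.4%, with 28.4% of genes higher in microglia) and all 10 were higher in oligodendrocytes than in microglia (background 29.8%, with 29.0% higher in microglia). In astrocytes 8 of the 10 exceeded microglia and none was lower (background 31.3%, with 29.8% higher in microglia). The median difference of the 10 members on the log2 scale was 1.30 for OPCs over astrocytes, 0.54 for OPCs over oligodendrocytes, 4.63 for OPCs over microglia, 2.01 for astrocytes over microglia and 3.597 for oligodendrocytes over microglia, and astrocytes were lower than oligodendrocytes with a median of -1.996. The medians over all genes tested lay between -0.083 and 0.138 in these 6 comparisons. In bulk libraries a gene that fewer cells express and a gene with less RNA in each cell cannot be told apart. The plot of the 10 genes by library shows these orders.

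**Figure D1:**
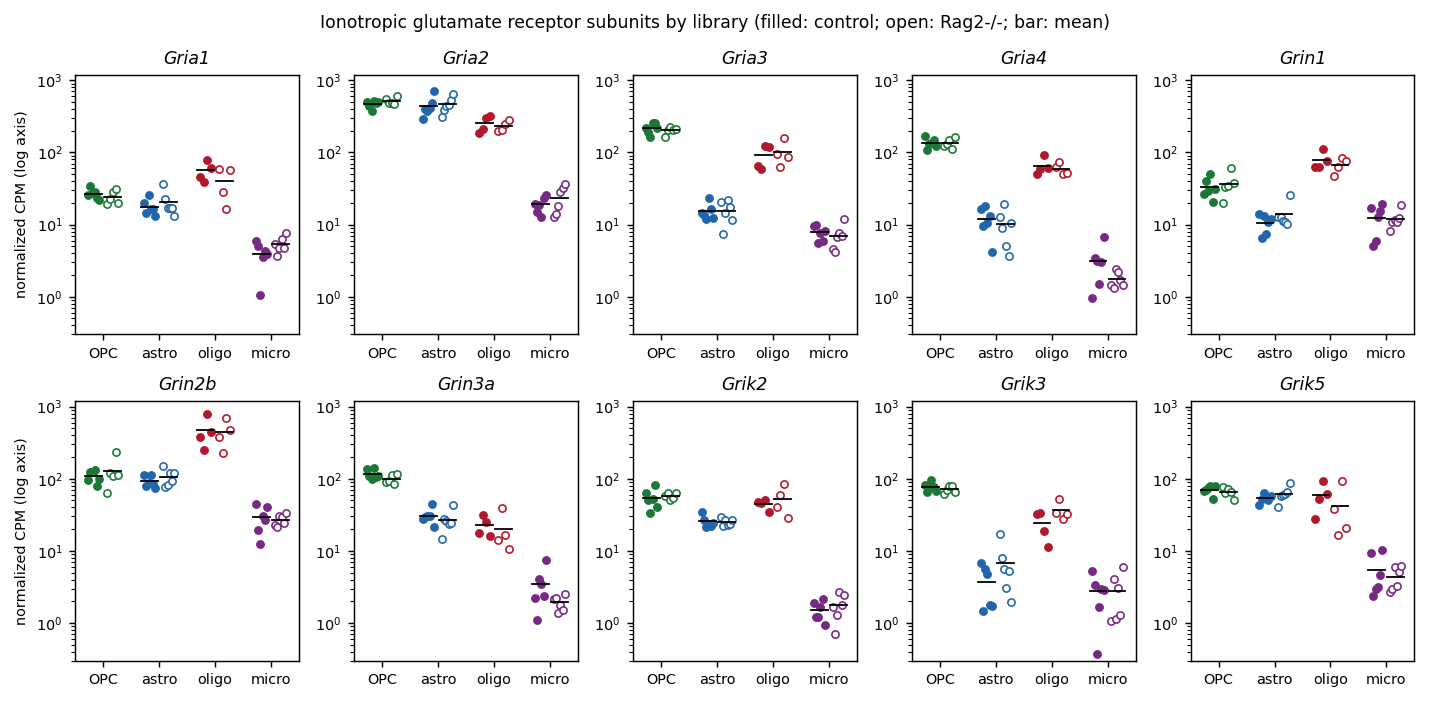
Normalized CPM (log axis) of each of the 10 subunit genes in every library by cell type, with filled points for controls, open points for Rag2-/- and bars at the group means. Within a cell type the ranges of both genotypes overlap for every gene, the control mean is lowest in microglia for every gene but Grin1, and Gria3, Gria4 and Grik3 are 10.97- to 20.96-fold higher in OPCs than in astrocytes.

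The Rag2-/- libraries were tested in the same way. They called 6 members for OPCs against astrocytes (background in either direction 25.6%), 6 for OPCs against oligodendrocytes (27.8%) and 10 for OPCs against microglia (59.0%). They called 8 for astrocytes against oligodendrocytes (39.6%), 9 for astrocytes against microglia (60.1%) and 10 for oligodendrocytes against microglia (59.0%). Of the 50 calls in controls 48 were found again with the same sign. The 2 that were not were Gria1 and Grik3 between OPCs and oligodendrocytes, and Grik3 between astrocytes and microglia was called in Rag2-/- libraries alone.

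Scaling by total counts, without TMM, moved the median log2 difference of all genes to 1.21 for OPCs minus oligodendrocytes, to 0.523 for OPCs minus astrocytes, 0.622 for astrocytes minus oligodendrocytes and to -0.932 for oligodendrocytes minus microglia. With it the share of all calls that were higher in the first-named cells went from 56.2 to 78.9% for OPCs against astrocytes, from 53.3 to 93.7% for OPCs against oligodendrocytes, from 45.4 to 75.7% for astrocytes against oligodendrocytes and from 50.7 to 30.7% for oligodendrocytes against microglia. For neighbouring cell types in a member's order of control means, changes of direction or call with this scaling are named with their values.

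Gria2, the subunit that holds the edited codon, did not separate OPCs from astrocytes. In control OPCs it ranged from 370.0 to 518 CPM with a median of 491, and in control astrocytes from 288 to 701 CPM with a median of 411. The 4 control oligodendrocyte libraries held 187, 211, 298 and 315 CPM. Control microglia held 12.8 to 26.0 CPM, so every library of the other cell types was above every microglia library. OPCs and astrocytes overlapped and differed by 0.03 ± 0.20 on the log2 scale (SE, 6 against 6 libraries, adjusted p = 0.926), a difference whose sign turned under DESeq2 and under its size factors. Astrocytes exceeded oligodendrocytes by 0.82 ± 0.23 (adjusted p = 0.00600), and oligodendrocytes exceeded microglia by 3.68 ± 0.23.

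Gria3 and Gria4 followed a different course, with high values in OPCs, intermediate ones in oligodendrocytes and low ones in astrocytes. The sum of 7 OPC markers ran in the same order in controls. It was 3988 ± 340 CPM in OPCs (SD, n = 6) and 629 ± 266 in oligodendrocytes (n = 4). Astrocytes had 164 ± 67.5 (n = 6) and microglia 22.6 ± 14.4 (n = 6). Within the 8 oligodendrocyte libraries of both genotypes the picture differed, as read by Pearson's r between log2 CPM and the log2 marker sum. There r of Gria3 was -0.45 with the OPC markers and 0.83 with the neuron markers, and that of Gria4 was 0.25 and -0.04. The part of OPC or neuronal transcripts in the levels of the other libraries was not tested. Control OPCs held 163 to 259 CPM of Gria3 (median 216) and control astrocytes 12.0 to 23.4 CPM (median 14.1), without overlap. The fold was 13.7 (log2 difference 3.77 ± 0.23, adjusted p = 3.60e-11). In the 4 control oligodendrocyte libraries Gria3 stood at 59.6, 65.5, 119 and 121 CPM, below every control OPC library and above every astrocyte library. OPCs exceeded oligodendrocytes by 1.22 ± 0.24 (adjusted p = 0.000512) and oligodendrocytes exceeded astrocytes, where the difference of astrocytes minus oligodendrocytes was -2.55 ± 0.23 (adjusted p = 1.16e-08). Astrocytes in turn exceeded microglia, at 5.53 to 9.90 CPM, by 0.96.

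For Gria4, whose product gives AMPA currents a fast time course, control OPCs held 109 to 169 CPM (median 134) against 4.17 to 18.1 CPM in astrocytes (median 11.9). This was a 10.97-fold difference (log2 3.46 ± 0.34, adjusted p = 2.96e-08). Oligodendrocytes stood between them at 49.7, 58.5, 61.3 and 91.6 CPM. The OPC excess over oligodendrocytes, 1.03 ± 0.35 (adjusted p = 0.0339), lost its call when any 1 of 6 libraries was left out, the largest adjusted p being 0.0856 without oligodendrocyte control 1, then 0.0749 without OPC control 1, 0.0635 and 0.0620 without oligodendrocyte controls 3 and 6, and 0.0551 and 0.0520 without OPC controls 5 and 4.

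Gria1, whose product is the partner of the Gria2 subunit at many forebrain synapses, was the AMPA subunit with its highest mean in oligodendrocyte libraries. The 4 controls held 39.4, 45.1, 61.4 and 78.9 CPM, all above the 21.9 to 33.8 CPM (median 26.2) of control OPCs. The log2 difference of OPCs minus oligodendrocytes was -1.11 ± 0.29 (adjusted p = 0.00609), but it was 0.00 when total counts set the scale and -0.77 (adjusted p = 0.0909) in Rag2-/- libraries. Astrocytes, at 13.3 to 25.6 CPM, overlapped OPCs, and that difference of 0.55 ± 0.27 was not called (adjusted p = 0.128), although limma voom called it (0.65, adjusted p = 0.0106), as did edgeR with total counts as the scale (0.97, adjusted p = 0.00343). The cell types stood in the same order for Gria1 as for the neuron markers in controls. Gria1 was 2.69, 4.50, 2.05 and 1.99% of their sum in control OPCs, astrocytes, microglia and oligodendrocytes. Within these cell types, over both genotypes, its r with the neuron markers was 0.74, 0.56, 0.35 and 0.31 in the same order. The part of neuronal transcripts in Gria1 was not tested.

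**Figure D2:**
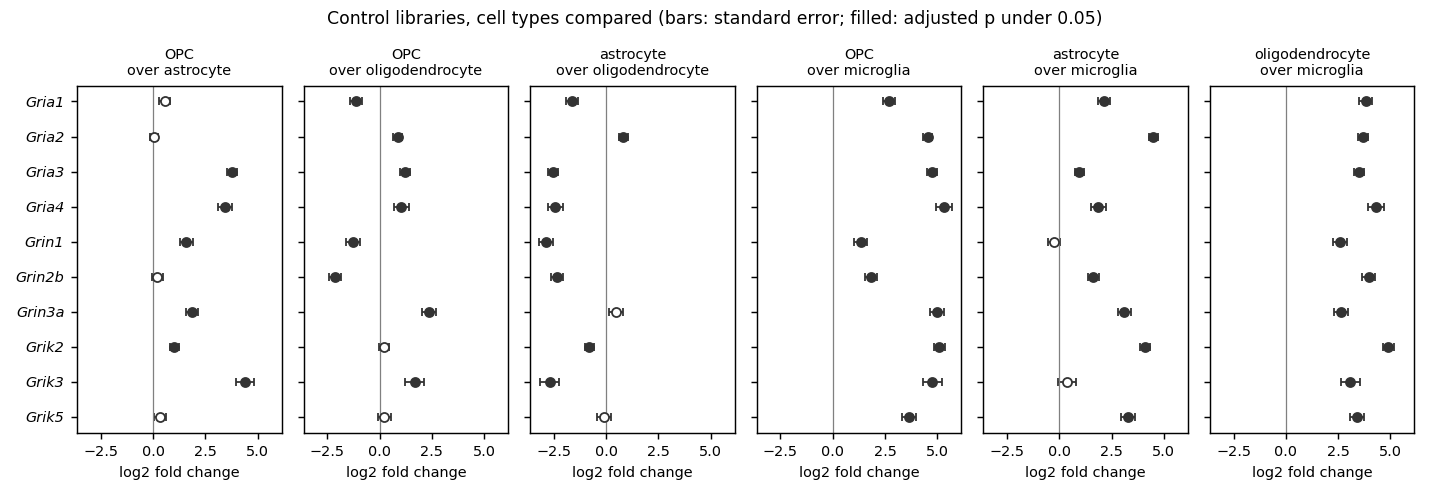
Log2 difference between cell types with its standard error (x axis) for each of the 10 genes in the 6 comparisons of control libraries, with filled points for an adjusted p below 0.05. For OPCs over astrocytes Gria3, Gria4 and Grik3 lie at 3.46 or more and Gria2 at 0.03, a difference whose sign turns under other scalings, and for OPCs over oligodendrocytes Grin2b lies at -2.13.

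The mix of the 4 AMPA transcripts was then read within each library, which removes the scaling between libraries. Counts were divided by the length of all exons of the gene (8.20 kb for Gria1, 27.4 kb for Gria2, 12.7 kb for Gria3 and 18.02 kb for Gria4), and each subunit was expressed as a percent of the sum. In control astrocytes Gria2 made up 69.99 to 90.06% of the AMPA transcripts per kb, with a mean of 78.9 ± 7.17 (SD, n = 6). In control OPCs its share was 36.3 to 40.6%, with a mean of 38.0 ± 1.67 (n = 6), so the populations did not overlap. The difference of OPCs minus astrocytes was -40.9 percentage points (exact two-sided permutation test, p = 0.00217, the smallest that 6 against 6 libraries allow; adjusted p = 0.0104 over 24 tests).

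Per kb of all exons OPCs held Gria2 and Gria3 in like parts, but with the canonical transcript length the shares were 39.2 and 35.02%, and with no division by length 55.3 and 25.5%. The Gria3 share per kb of all exons was 37.8 ± 2.68% in OPCs, 6.23 ± 2.05% in astrocytes, 26.3 ± 2.76% in oligodendrocytes and 31.4 ± 5.74% in microglia. Gria4 followed at 16.8 ± 2.33% in OPCs, 3.604 ± 1.91% in astrocytes, 13.7 ± 2.18% in oligodendrocytes and 8.72 ± 4.61% in microglia. Gria1 made up 25.5 ± 2.17% of the AMPA transcripts in oligodendrocytes and 7.36 ± 1.72% in OPCs, which did not overlap (exact permutation p = 0.00952, adjusted p = 0.0176). These Gria1 shares moved with the length used, to 15.6 and 4.14% with the canonical transcript and to 12.03 and 3.201% without division. The Gria2 share of oligodendrocytes, 34.6 ± 2.93%, lay 3.41 percentage points under that of OPCs, and this was not called (exact permutation p = 0.0571, adjusted p = 0.0807).

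Of the 24 differences in share between cell types 14 were called, and 16 had an unadjusted p below 0.05. The contrast of astrocytes with OPCs did not rest on the length used, since with the canonical transcript length Gria2 made up 82.8% in astrocytes and 39.2% in OPCs, and with no division by length 90.0% and 55.3%. The plot of AMPA shares sets the 4 subunits beside each other. In Rag2-/- libraries the share of Gria2 was 41.6% in OPCs, 78.8% in astrocytes, 34.6% in oligodendrocytes and 38.7% in microglia.

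**Figure D3:**
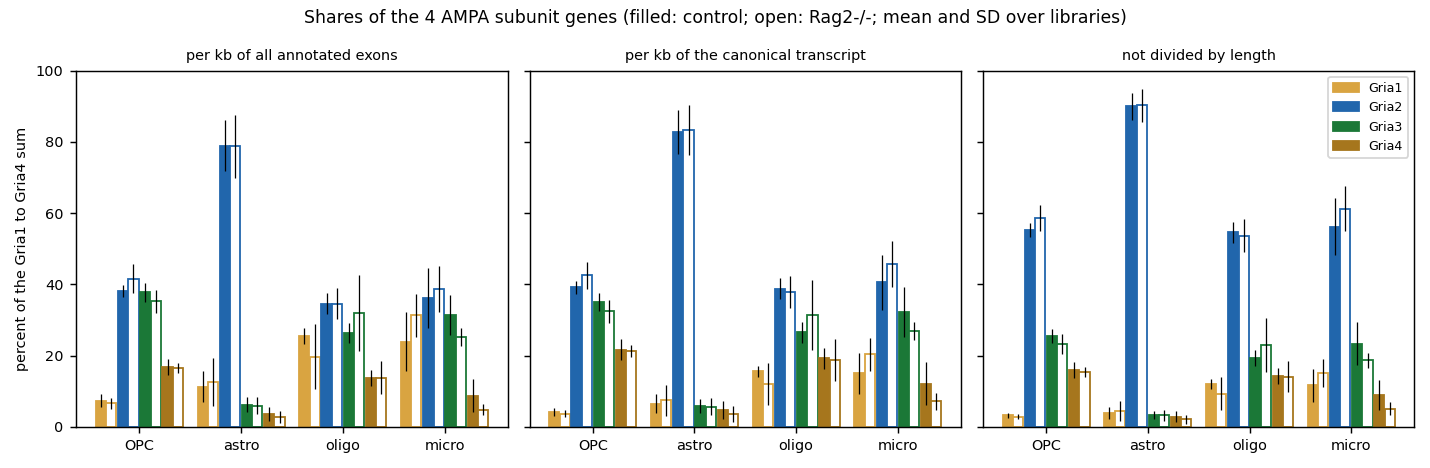
Share of Gria1, Gria2, Gria3 and Gria4 in the sum of the 4 AMPA transcripts (y axis, percent) by cell type, with counts divided by all exons, by the canonical transcript or not at all, and with filled bars for controls, open bars for Rag2-/- and lines for the SD over libraries. Gria2 averages 78.9% in control astrocytes and 38.0% in control OPCs per kb of all exons, and the gap is present in all 3 panels.

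Among the NMDA subunits, Grin3a, whose product lowers the calcium permeability and magnesium block of the channels that contain it, was the one with its highest values in OPCs. Control OPCs held 99.0 to 140 CPM (median 109.0), control astrocytes 21.3 to 44.2 CPM (median 29.9) and control microglia 1.1 to 7.44 CPM. The 4 oligodendrocyte controls held 15.9, 17.8, 25.02 and 31.1 CPM. OPCs were above every library of the other cell types, 3.67-fold over astrocytes (log2 1.87 ± 0.28, adjusted p = 1.51e-05) and by 2.34 ± 0.34 over oligodendrocytes (adjusted p = 1.39e-05). Astrocytes and oligodendrocytes overlapped and were not called apart (0.47 ± 0.32, adjusted p = 0.255), but were with total counts as the scale (1.11, adjusted p = 0.0122).

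Grin2b, a glutamate-binding subunit typical of forebrain neurons, had its highest values in oligodendrocyte libraries, where the controls held 251, 383, 439 and 794 CPM. Control OPCs held 79.2 to 132 CPM (median 111), control astrocytes 74.0 to 113 CPM (median 85.8) and control microglia 12.3 to 44.4 CPM (median 28.4). Oligodendrocytes did not overlap the rest, and the difference of OPCs minus oligodendrocytes was -2.13 ± 0.29 (adjusted p = 7.72e-06). OPCs and astrocytes overlapped and differed by 0.21 ± 0.26 (adjusted p = 0.609), and by 0.62 with total counts as the scale (adjusted p = 0.0387).

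Grin1, the subunit that every NMDA receptor requires, had 61.9, 62.1, 75.8 and 110 CPM in oligodendrocyte controls, 20.8 to 50.1 CPM in OPCs (median 30.2), 6.42 to 14.1 CPM in astrocytes (median 11.3) and 5.10 to 19.01 CPM in microglia (median 13.9). It was the sole member whose control mean was not lowest in microglia, although astrocytes and microglia overlapped and did not differ beyond their error (-0.26 ± 0.30, adjusted p = 0.477), with a sign that turned in Rag2-/- libraries. OPCs minus oligodendrocytes gave -1.27 ± 0.32 (adjusted p = 0.00511). That call was lost without oligodendrocyte control 5 (-0.94, adjusted p = 0.0536) and with total counts as the scale (-0.17, adjusted p = 0.645). The Grin1 locus (2:25181186-25209226, minus strand, GRCm39) shares 11.9% of its exon bases with a gene on the opposite strand, and the strand setting of the counting is not given in the sources used here, so its level is uncertain to that extent.

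Between OPCs and oligodendrocytes the neuron markers moved in the same direction as Grin1, Grin2b and Gria1. Between OPCs and oligodendrocytes 10 of the 12 neuron markers were called, all lower in OPCs, and all 12 were lower in astrocytes than in oligodendrocytes. In controls their sum was 2996 ± 1302 CPM in oligodendrocytes (SD, n = 4), 1036 ± 277 in OPCs (n = 6), 393 ± 89.2 in astrocytes (n = 6) and 201 ± 54.5 in microglia (n = 6). Grin1 was 3.19, 2.78, 6.24 and 2.82% of that sum in OPCs, astrocytes, microglia and oligodendrocytes, and Grin2b 10.7, 24.01, 14.6 and 16.04%. Gria3 was 22.95% of it in OPCs and 3.13 to 4.13% elsewhere, and Gria2 was 122% in astrocytes, 49.0% in OPCs and under 10% in the others. Within the 11 OPC libraries r with the neuron markers was 0.92 for Grin1, 0.90 for Grin2b, -0.01 for Gria3 and -0.42 for Gria2. Within the 8 oligodendrocyte libraries it was 0.62, 0.82, 0.83 and 0.85 in the same order, so there Gria3 and Gria2 ran with these markers too. The part of neuronal transcripts in these levels was not tested.

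**Figure D4:**
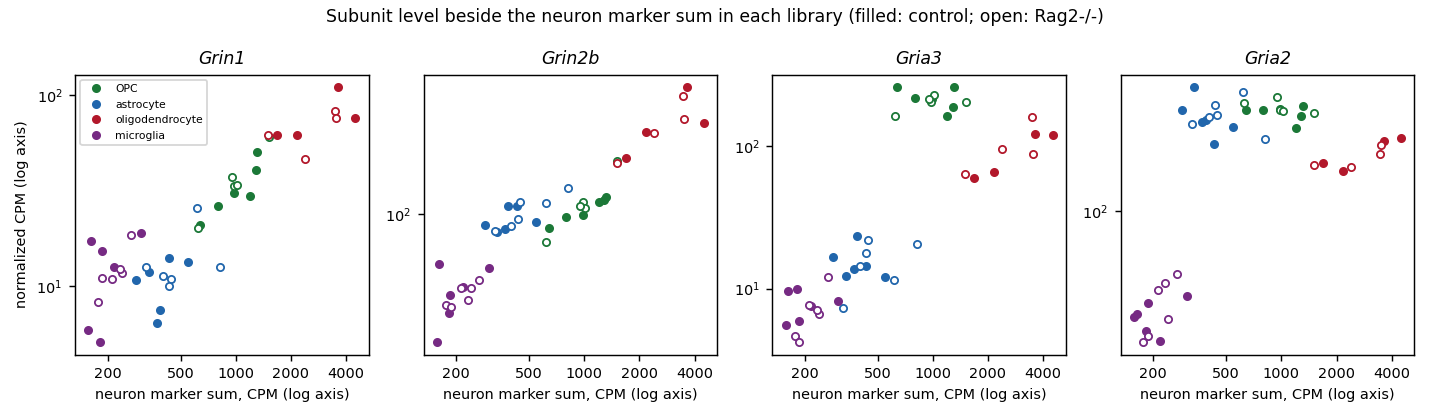
Normalized CPM (log axis) of Grin1, Grin2b, Gria3 and Gria2 in each of the 43 libraries against the summed CPM of 12 neuron markers in the same library (log axis), coloured by cell type, with filled points for controls and open points for Rag2-/-. Most oligodendrocyte libraries, at 1504 to 4501 CPM of neuron markers, lie highest for Grin1 and Grin2b, while OPC libraries, at 622 to 1514 CPM, lie highest for Gria3.

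The kainate subunits were led by Grik3, which had the largest difference between OPCs and astrocytes of the 10 members. Control OPCs held 64.7 to 96.8 CPM (median 76.3) and control astrocytes 1.46 to 6.80 CPM (median 3.27), a 20.96-fold difference (log2 4.39 ± 0.44, adjusted p = 4.55e-08). The 4 oligodendrocyte controls held 11.5, 18.96, 32.5 and 33.1 CPM, below every OPC library (1.68 ± 0.45, adjusted p = 0.00740). That difference was 0.95 in Rag2-/- libraries and was not called there (adjusted p = 0.148). Astrocytes and microglia, at 0.374 to 5.25 CPM, overlapped and were not called apart (0.36 ± 0.44, adjusted p = 0.484).

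Grik2, which can form channels alone, was more even among the macroglia. It stood at 33.9 to 81.6 CPM in control OPCs (median 51.3), at 34.5, 45.3, 47.1 and 50.8 CPM in oligodendrocytes, and at 21.2 to 34.9 CPM in astrocytes (median 24.2). OPCs exceeded astrocytes by 1.02 ± 0.21 (adjusted p = 0.000543), and OPCs and oligodendrocytes were not called apart (0.22, adjusted p = 0.527), though they were with total counts as the scale (1.31). Astrocytes minus oligodendrocytes gave -0.80 ± 0.23 (adjusted p = 0.00780), a call that was lost with total counts as the scale (-0.15) and without the filter on low counts (adjusted p = 0.0507). Microglia held 0.938 to 2.15 CPM of Grik2, which came from 12 to 21 counts per library.

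Grik5, which needs a partner such as the Grik2 product to reach the surface, was the member with the least difference among OPCs, oligodendrocytes and astrocytes. The ranges in controls were 52.2 to 80.2 CPM in OPCs (median 72.2) and 42.8 to 64.0 CPM in astrocytes (median 54.2), and the oligodendrocyte libraries held 27.7, 51.9, 61.7 and 92.9 CPM. All 3 ranges overlapped and no pair was called, with log2 differences of 0.34 for OPCs minus astrocytes (adjusted p = 0.411), 0.23 for OPCs minus oligodendrocytes (adjusted p = 0.652) and -0.12 ± 0.33 for astrocytes minus oligodendrocytes (adjusted p = 0.807). The sign of the last changed with total counts as the scale (0.58), and the OPC excess over oligodendrocytes became a call under limma voom (0.88, adjusted p = 0.00935) and with total counts (1.34). With total counts 9 members were called between OPCs and astrocytes, Grik5 among them, and its value there is not given here. Microglia held 2.40 to 10.1 CPM, below every other library.

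Per kb of exon the order within a cell type could be read as well, on the scale of normalized CPM per kb in controls, but it moved with the length used. Per kb of all exons, in OPCs Gria2 and Gria3 were level at 17.1, followed by Grin3a at 8.85, Grik3 at 7.61, Grik5 at 7.58, Gria4 at 7.53, Grin2b at 4.27, Gria1 at 3.25, Grik2 at 3.203 and Grin1 at 2.98. In astrocytes Gria2, at 16.2, was followed by Grik5 at 5.79, and in oligodendrocytes Grin2b led at 18.3. Per kb of the canonical transcript the order in OPCs was Gria2 at 43.5, Gria3 at 39.1, Gria4 at 24.01, Grin3a at 15.1, Grik5 at 14.8 and Grik3 at 8.31, and in oligodendrocytes Gria2 (23.5) lay above Grin2b (19.3). By family and per kb of all exons, AMPA, NMDA and kainate members made up 56.5, 20.3 and 23.2% of the 10 members per kb in control OPCs and 57.6, 20.1 and 22.3% in astrocytes. In oligodendrocytes the parts were 41.4, 40.7 and 17.9%, and in microglia 38.0, 45.4 and 16.6%. The order of AMPA and NMDA in these cells turned with the length used, since the canonical transcript gave AMPA 50.7 and NMDA 32.9% in oligodendrocytes and 43.8 and 41.8% in microglia, and no division gave 40.8 and 47.7% in oligodendrocytes. The NMDA part counts Grin1, Grin2b and Grin3a alone, so these parts describe the listed members and not whole families. Grin2c and Grin2a, whose levels are given below, are not in them. Differences in these parts between cell types were not tested.

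The second question was whether the absence of lymphocytes moved any of these transcripts. None of the 10 members was called by genotype in OPCs, astrocytes, microglia or oligodendrocytes by edgeR, and DESeq2 and limma voom called 0 as well. The background of genes called by edgeR was as small, at 0.00592% in OPCs, 0.00679% in astrocytes, 0.00667% in microglia and 0.0% in oligodendrocytes, where 467 of 13802 genes had an unadjusted p below 0.05. The share of all genes that DESeq2 or limma voom called by genotype is not given here. With DESeq2 the study itself reported more differentially expressed genes in oligodendrocytes than in the other cell types, most of them downregulated. Of the 40 tests of a member, 1 had an unadjusted p below 0.05. The median log2 difference of the 10 members, Rag2-/- minus control, was -0.064 in OPCs, 0.098 in astrocytes, -0.12 in microglia and -0.215 in oligodendrocytes.

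That 1 member was Grik3 in astrocytes. The controls held 1.46 to 6.80 CPM with a median of 3.27, and the Rag2-/- libraries 1.93 to 17.4 CPM with a median of 5.396, so the groups overlapped. The log2 difference was 1.16 ± 0.47 (adjusted p = 1.00). Over the alternatives it ran from 0.64, without Rag2-/- replicate 1, to 1.43, and it was not called in any of them. The highest Rag2-/- value came from replicate 1, whose neuron marker sum of 816 CPM was also the highest of the astrocyte libraries. With the neuron markers as a covariate the difference was 1.1.

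In the other cell types the member with the smallest p was Grin3a in OPCs, Gria4 in microglia and Grik3 in oligodendrocytes. Grin3a stood at 84.0, 91.1, 93.1, 111 and 116 CPM in the 5 Rag2-/- OPC libraries against 99.0 to 140 CPM in controls, with a log2 difference of -0.25 ± 0.13 (adjusted p = 1.00). Gria4 ranged from 1.31 to 2.41 CPM in Rag2-/- microglia and from 0.954 to 6.63 CPM in control microglia (-0.82 ± 0.42, adjusted p = 0.999). Grik3 in Rag2-/- oligodendrocytes stood at 27.5, 32.6, 34.0 and 52.4 CPM, partly above the controls given earlier (0.70 ± 0.41, adjusted p = 0.998). None of these 3 differences was called. That of Gria4 was -0.45 without control replicate 6 and -0.32 with the littermate pair as a block, and that of Grik3 in oligodendrocytes was 0.42 with the block.

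**Figure D5:**
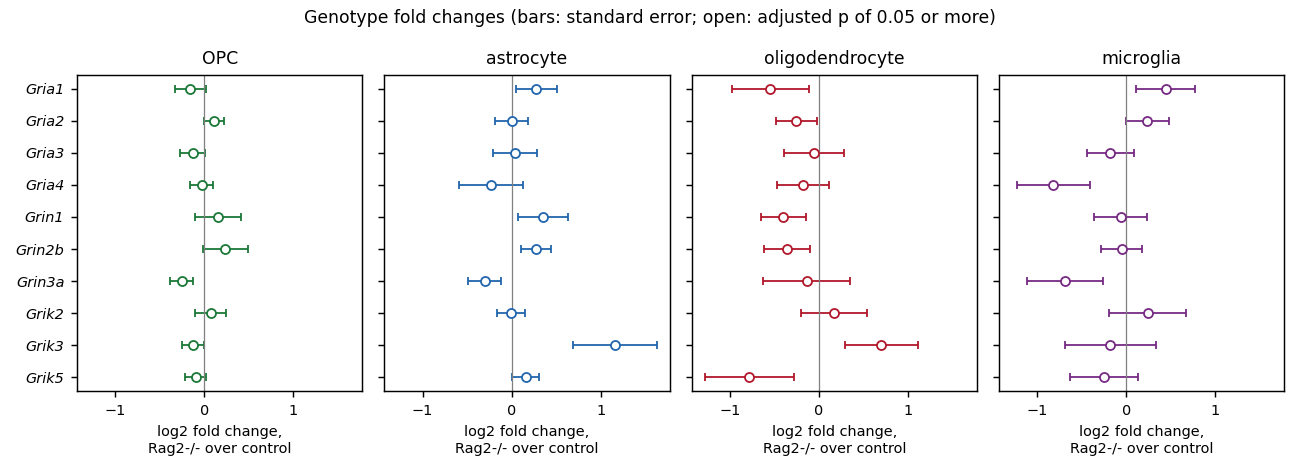
Log2 difference of Rag2-/- minus control with its standard error (x axis) for the 10 genes, in a panel for each cell type. Every point is open, which marks an adjusted p of 0.05 or more, and Grik3 in astrocytes, at 1.16 ± 0.47, is the point farthest from 0 relative to its error.

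Gria2 and Gria3, which separated OPCs from astrocytes in such different degree, lay within the control spread in most Rag2-/- libraries. Gria2 in Rag2-/- OPCs stood at 464, 478, 488, 546 and 596 CPM beside 370.0 to 518 CPM in controls, and in Rag2-/- astrocytes at 310 to 648 CPM beside 288 to 701 CPM. Gria3 in Rag2-/- OPCs stood at 162, 205, 205, 214 and 227 CPM beside 163 to 259 CPM. None of the 16 AMPA shares was called by genotype. Gria3 in microglia had the smallest p, with a share of 25.2% in Rag2-/- and 31.4% in controls (exact permutation p = 0.0433, adjusted p = 0.416). None of the 12 family shares was called either (smallest exact permutation p = 0.327, all adjusted p = 1.00). With 4 oligodendrocyte libraries a group, the smallest exact p that a share could reach was 0.0286.

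The 5 Rag2-/- OPC libraries had 2 features that touch these values. Replicate 4 held the most Grin1 (60.1 CPM), the most Grin2b (237 CPM) and the largest neuron marker sum (1514 CPM) of the OPC libraries. The summed astrocyte markers were 1379 ± 472 CPM in Rag2-/- OPCs (n = 5) and 912 ± 208 CPM in control OPCs (n = 6), and although 7 of the 8 markers had an unadjusted p below 0.05, beside 4.02% of all genes tested, edgeR called none. Of 4 endothelial and 4 mural cell markers 1 and 2 had an unadjusted p below 0.05 there, and none was called. The part of these cells in the OPC values was not tested.

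The effect of genotype was then compared between cell types. None of the 10 members was called for a genotype effect that differed between cell types (background 0.314%, 67 of 21368 genes) by edgeR, 0 had an unadjusted p below 0.05, and the smallest p was that of Grik3 (adjusted p = 0.631).

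Sex was a term of the same models, and edgeR called none of the 10 members for it in OPCs (background 0.0296%), astrocytes (0.0407%), microglia (0.0467%) or oligodendrocytes (0.0362%). DESeq2 called 1 and limma voom 0. The backgrounds above are those of edgeR, and the share of all genes that DESeq2 or limma voom called is not given here. By edgeR 6 of the 40 tests had an unadjusted p below 0.05, of which 3 were in oligodendrocytes, 2 in astrocytes and 1 in OPCs. Over all genes tested the share with such a p was 8.23% in oligodendrocytes, 6.73% in astrocytes, 4.3% in OPCs and 3.92% in microglia. The nearest was Grin2b in oligodendrocytes, with 474, 693 and 794 CPM in the 3 female libraries and 230.2, 251, 373, 383 and 439 CPM in the 5 male ones, which did not overlap. The log2 difference of female minus male was 1.14 ± 0.26 (adjusted p = 0.474 by edgeR). DESeq2 called it (adjusted p = 0.0422), as did edgeR without the filter on low counts (adjusted p = 0.00312). With the littermate pair as a block the difference was 0.2 and was not called (adjusted p = 0.905 by edgeR). Sex varies within pair 6 alone, where the male control held 439 CPM and the female Rag2-/- library 474 CPM. The female values of 693 and 794 CPM both came from pair 5. The neuron marker sum was 3540 ± 81.9 CPM in the female and 2450 ± 1202 CPM in the male oligodendrocyte libraries, and its part in the difference was not tested.

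Other members with an unadjusted p below 0.05 for sex were spread over both directions. In oligodendrocytes Grin1 was 0.74 ± 0.26 (adjusted p = 0.505) and Grik5 1.13 ± 0.50 (adjusted p = 0.599) for female minus male on the log2 scale. In astrocytes Grin3a differed by 0.51 ± 0.19 (adjusted p = 0.716) and Grik3 by -1.09 ± 0.48 (adjusted p = 0.719), and in OPCs Grik5 by -0.29 ± 0.13 (adjusted p = 0.999). In microglia the smallest p was that of Grik3 (0.76 ± 0.51, adjusted p = 1.00). None of these passed the adjustment over all genes.

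Of 7 further ionotropic subunit genes (Grin2a, Grin2c, Grin2d, Grin3b, Grik1, Grik4 and Grid1), 5 were higher in OPCs than in astrocytes and 1 was lower (background 17.4 and 13.5%), and 6 of the 7 were higher in OPCs than in microglia (background 32.4%). The 1 gene higher in astrocytes was Grin2c, an NMDA subunit known in astrocytes and cerebellar granule cells. It stood at 158 CPM in control astrocytes and 8.23 CPM in control OPCs, a log2 difference of OPCs minus astrocytes of -4.31 ± 0.44 (adjusted p = 6.06e-08). Among those higher in OPCs, Grin2d had 13.5 CPM in OPCs and 0.477 CPM in astrocytes, and Grik4, a partner subunit like Grik5, had 21.8 and 0.959 CPM. Grin2a, a subunit of mature neurons, was highest in oligodendrocytes at 139 CPM, as Grin2b was, beside 30.8 CPM in OPCs.

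Grin2c was also the list gene with the smallest p for genotype in OPCs, at 21.3 ± 9.34 CPM in Rag2-/- (n = 5) and 8.23 ± 4.47 CPM in controls (n = 6). The log2 difference was 1.35 ± 0.38 (adjusted p = 1.00 by edgeR), and it was singled out after its value was seen. It moved with the astrocyte markers given above, and their part in it was not tested.

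AMPA receptors reach synapses with auxiliary proteins. Of 12 genes for these, 7 were higher in OPCs than in astrocytes and none lower (background 17.4 and 13.5%), and all 12 were higher in OPCs than in microglia (background 32.4%). Cacng4, a transmembrane AMPA receptor regulatory protein (TARP), stood at 357 to 440.5 CPM in control OPCs and 6.92 to 25.5 CPM in astrocytes, a log2 difference of 5.00 ± 0.44 (adjusted p = 5.29e-09). It exceeded oligodendrocytes by 3.00 ± 0.47 as well. Cacng7, of the same family, was at 125 and 57.5 CPM in OPCs and astrocytes (1.08 ± 0.27, adjusted p = 0.00359). Frrs1l, which serves AMPA receptor assembly, was at 74.8 and 26.1 CPM, and Shisa9, for an AMPA receptor modulator at 86.0 and 59.5 CPM, was not called (adjusted p = 0.149). Both kainate auxiliary genes were higher in OPCs than in astrocytes, Neto1 at 72.8 and 7.004 CPM and Neto2 at 38.7 and 6.32 CPM, and neither was called between OPCs and oligodendrocytes.

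Of the 7 scaffold genes, 2 were higher in OPCs than in astrocytes and 1 was lower, which is near the background of 17.4 and 13.5%, while 4 were lower in OPCs than in oligodendrocytes (background 12.5%). Dlg2, which anchors NMDA receptors, had 120.4, 58.7 and 269.9 CPM in OPCs, astrocytes and oligodendrocytes, and Dlg1 had 57.2, 90.01 and 174 CPM. Dlg4, the PSD-95 gene, did not differ beyond its error between OPCs and astrocytes (73.3 and 65.3 CPM, adjusted p = 0.712).

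Genes of the enzyme family that holds the editor of the Gria2 codon printed above were measured too. Adarb1, whose product edits the Gria2 Q/R site, was at 23.03 to 37.9 CPM in control OPCs and 6.80 to 13.3 CPM in control astrocytes, which did not overlap (1.63 ± 0.22, adjusted p = 3.25e-06). In oligodendrocytes it was at 32.0 CPM, not called apart from OPCs (adjusted p = 0.702). Adarb2, a relative without known editing activity, was at 43.9 CPM in OPCs and 1.75 CPM in astrocytes (4.61 ± 0.39), and Adar did not differ between them beyond its error (17.03 and 11.7 CPM, adjusted p = 0.317).

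Metabotropic receptors, which signal through G proteins, divided the populations in both directions. Of the 8 genes 7 passed the filter, and Grm6, known from the retina, had at most 1 count in any library. Between OPCs and astrocytes 4 were higher in OPCs and 1 in astrocytes (background 17.4 and 13.5%). Grm3, the receptor known from astrocytes, was that one, at 285 to 360.0 CPM in control astrocytes and 19.6 to 48.4 CPM in control OPCs (-3.59 ± 0.24, adjusted p = 1.38e-10). Grm5 went the other way, at 57.2 to 94.9 CPM in OPCs and 6.56 to 10.9 CPM in astrocytes (3.03 ± 0.30, adjusted p = 2.82e-08). No gene of these 6 lists was called by genotype or by sex in any cell type.

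The genes whose levels ran most like each member were sought among 13192 protein-coding genes by Pearson's r of log2 CPM over the 43 libraries. These libraries share 4 cell types, so r describes the pattern among cell types and carries no test. Genes that ran close to Gria2 included Dmd (0.989) and Mtss2 (0.986). Gria3 ran most like Vxn (0.972), Shisa7 (0.972) and Grm5 (0.971), and Gria4 like Tmem132b (0.974), Slc1a1 (0.973) and Dscaml1 (0.972). The nearest gene of Grik3 was Slc1a1 (0.961), before Sez6l (0.954) and Sulf2 (0.953). The nearest genes of Grin3a were Spon1 (0.966), Xylt1 (0.966) and Smoc1 (0.963), and those of Grik2 were Srgap1 (0.978), Lrrn1 (0.978) and Pcyt1b (0.977).

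The nearest genes of Grin1 were Camk2b (0.934), Slc17a7 (0.934), which is itself one of the 12 neuron markers and loads glutamate into vesicles, and Slc12a5 (0.927), the chloride transporter of neurons. Grin2b was nearest to Kif5c (0.958), Atp2b2 (0.956) and R3hdm1 (0.955), and Gria1 to Rundc3a (0.946), Atp2b2 (0.943) and Rims2 (0.939). Grik5 was nearest to Adgrb3 (0.960) and to a fellow member, Gria2 (0.956).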

How the data were processed

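RNA of immunopanned cortical glia was amplified (Ovation kit) and sequenced as 43 libraries. The deposited values are counts of reads per gene, which the authors made with STAR 2.7.8a and HTSeq on GRCm39, with no normalization. The strand setting is not given in the sources used here. Of the 55416 gene IDs 54749 were named from the GENCODE M39 annotation. Counts on no gene, 33.5 to 52.0% of each library, were left out. Between 6499417 and 23118497 counts remained (median 10447042), so the floor of 3 counts was worth 0.13 to 0.462 CPM and levels near it are imprecise. No pair of replicate libraries came near sampling noise (chi-square per gene at least 7.45).

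Tests used edgeR 4.0.16 (quasi-likelihood, TMM, filterByExpr with a minimum count of 10) in R 4.3.3. Each cell type was fitted alone with genotype and sex, as in the study's own models. The 4 cell types were compared in one fit of the 22 controls with sex as a term, and genotype effects between cell types in one fit of all 43. P-values were two-sided and adjusted by Benjamini-Hochberg over all genes tested. The standard error was the log2 difference divided by the root of F. The fits were tested on simulated counts. Shares were compared by exact permutation over libraries in scipy 1.17.1. Alternatives were DESeq2 1.42.0, limma voom 3.58.1 with sample quality weights, other scalings and filters, a littermate block, Rag2+/- controls alone, a neuron marker covariate and each library left out. The canonical transcript length was added after seeing the data.

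Each library came from a different mouse or a different plate of the same mouse. Pair numbers in the labels mark littermates, so the numbers pair the samples. Deviations of same-numbered libraries from their group means correlated at 0.0546 to 0.0787 on average, against -0.026 to -0.011 for others.

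The 10 members and the gene lists were chosen with earlier results of these data known. All members were named. Genotype and sex differences were given for members with an unadjusted p below 0.05, otherwise for that with the smallest p, and cell type differences for neighbours in each member's order. Of the other lists the genes with the highest control CPM in OPCs or astrocytes were named, and as similar genes the 3 with the highest Pearson's r of log2(CPM + 1) among protein-coding genes with a mean CPM of at least 1. Further genes named were singled out after their values were seen, and some genes that the rule picks are not reported here.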

Additional observations from a re-analysis of the deposited data

Results flagged for a closer look

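Grin1 in Rag2-/- astrocyte replicate 6 stood apart from the other 5 libraries of its group. It held 25.6 CPM, from 238 counts, and the others held 10.1 to 12.6 CPM. The gap to the nearest library was 0.835 of the range of the group. Of the 80 groups of member and condition it was the 1 so far out, and no chance rate for a gap of this size is given here. The neuron marker sum of this library was 615 CPM, the second highest of the astrocyte libraries after Rag2-/- replicate 1 (816 CPM), which held 12.6 CPM or less of Grin1. The part of neuronal transcripts in the value was not tested.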

How the results depend on the processing

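No member was called by genotype under any alternative, nor for a genotype effect that differed between cell types. For sex, 1 member (Grin2b) was called in oligodendrocytes by DESeq2 and 1 without the filter on low counts. The Grin2b difference was 0.2 with the littermate block. The share of all genes called for sex under these settings is not given here. Members called ranged over alternatives from 6 to 9 for OPCs against astrocytes and against oligodendrocytes, 8 to 9 for astrocytes against microglia, 7 to 8 for astrocytes against oligodendrocytes, and stayed at 10 otherwise. All genes called between OPCs and oligodendrocytes numbered 5194, and 10934 with total counts as the scale. The AMPA shares called by cell type were 14, between 13 and 18 with a library left out, and 0 with the replicate block, whose exact test within mice has too few pairs to reach the threshold. The block changed no other call.

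Some differences changed sign. Gria2 for OPCs minus astrocytes was -0.02 under DESeq2 and without mitochondrial genes, -0.03 with DESeq2 size factors and with a mean count of at least 10, and -0.07 to 0.22 with a library left out. Gria1 for OPCs minus oligodendrocytes was 0.00 with total counts. Grik5 for astrocytes minus oligodendrocytes was 0.65 in Rag2-/- libraries, 0.55 under limma voom, 0.01 with the block, 0.58 with total counts and -0.36 to 0.33 with a library left out. For OPCs minus oligodendrocytes it was -0.02 to 0.67 with a library left out, and for sex in oligodendrocytes -1.24 with the block, where sex varies within pair 6 alone and the value rests on that pair. Grin1 for astrocytes minus microglia was 0.21 in Rag2-/- libraries. The cause was not tested in any of these. Depth limits microglia most, where Grik2 held fewer than 30 counts in 11 of 12 libraries, Grin3a in 9, Gria4 in 7, Grik3 in 6, Grik5 in 3 and Gria1 in 1.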
